A study of Mus musculus with 42 samples.

Results

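Il2 and Il21 encode interleukin-2 and interleukin-21, a pair of secreted cytokines of activated T cells, and each was read here in regulatory (Treg) and conventional (Tconv) CD4+ T cells after the T cell receptor complex was engaged. They are 2 of the 19752 gene symbols on the array, and both were among the 12425 genes bright enough to be tested. They were chosen because their levels after stimulation were much lower in Treg than in Tconv. Those levels are therefore given as a description, with no test. Each gene had 1 transcript cluster, the unit of the array in which many short probes along a gene are summed into 1 value. The values are the authors' RMA intensities, given as log2.

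All cells came from spleens of NOD mice, in which autoimmune diabetes arises spontaneously, and the mice carried Foxp3-IRES-GFP, a reporter that makes cells with the Treg factor Foxp3 fluoresce green. KT3, an antibody against CD3, was injected into a vein, or was added at 1.25 µg/ml to splenocytes in culture; no source used here gives the injected dose. In vivo, Treg (CD4+ GFP+) and Tconv (CD4+ GFP-) were sorted at 2, 8, 24 and 72 h after KT3, 24 h after injected rat IgG, or from non-treated mice (0 h). In culture, Treg and Tconv were sorted at 0, 2, 8, 24 and 72 h of KT3. Every group held 2 arrays, numbered 1 and 2, except the IgG groups with 1 array per cell type, which made 42 arrays in 22 groups. All in vivo mice were females of 8 weeks. In culture the arrays numbered 1 were from female mice of 9 weeks and those numbered 2 from males of 14 weeks, so that setting, dose and age cannot be told apart, while the culture arrays numbered 1 share the sex of all in vivo arrays. In vivo samples were labelled as single or double sorted, and the labels do not say whether the arrays of a group came from different animals, so that p-values measure only the spread between arrays.

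Interleukin-2 is secreted by Tconv within hours of receptor engagement and binds a receptor of up to 3 chains on the same and on neighbouring T cells. Treg carry much of its high-affinity alpha chain, depend on it for survival, and are known to make very little of it themselves, with Foxp3 binding at the Il2 gene. Interleukin-21 is made mainly by follicular helper and Th17 cells, signals through Il21r and the common gamma chain to STAT3, and acts on B cells and CD8 T cells. Both genes are known targets of NFAT, the factor that calcineurin releases into the nucleus when the T cell receptor is engaged. In NOD mice both lie in a chromosome 3 region linked to diabetes.

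The stretches just before the start sites are shown because both genes answer to the same receptor signal. They are the 250 bases before each start in RefSeq's GRCm38.p6, both on the minus strand, printed 5′ to 3′ along the gene, with the NFAT core GGAAA or its reverse complement TTTCC in capitals. Il2 is at chr3:37125955-37126204 and Il21 at chr3:37232637-37232886.
Il2: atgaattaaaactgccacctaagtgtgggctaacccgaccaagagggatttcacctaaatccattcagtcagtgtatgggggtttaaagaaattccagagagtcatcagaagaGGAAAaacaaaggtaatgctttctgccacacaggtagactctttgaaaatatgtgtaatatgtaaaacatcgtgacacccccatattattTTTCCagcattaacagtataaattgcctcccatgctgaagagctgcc
Il21: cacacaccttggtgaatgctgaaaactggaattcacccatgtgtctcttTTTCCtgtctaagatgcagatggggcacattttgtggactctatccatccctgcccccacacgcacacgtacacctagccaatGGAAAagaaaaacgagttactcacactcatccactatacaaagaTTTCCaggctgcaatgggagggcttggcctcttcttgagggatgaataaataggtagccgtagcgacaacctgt
Counted backward from 1 at the base next to the start, the Il2 stretch held the core at 137 to 133 on the gene's strand and at 47 to 43 on the other. The Il21 stretch held it at 118 to 114 on the gene's strand, and at 201 to 197 and 74 to 70 on the other. Of 32851 promoter windows of this length, 55.6% held at least 1 such core on either strand, 21.4% held 2 or more as Il2 does, and 6.4% held 3 or more as Il21 does. A TATA box spelled TATAAA stood at 31 to 26 in Il2 and in 12.4% of all windows, and none was in the Il21 window. The core of the repressor Zeb1, CAGGT, occurred once in each, at 107 to 103 in Il2 and at 6 to 2 on the other strand in Il21, and in 44.1% of all windows. The AP-1 letters TGANTCA (6.7% of all windows), the STAT letters TTCNNNGAA (7.0%) and the NF-kB motif (3.9%) were searched on both strands and were in neither window. The GC content was 40.4% in the Il2 window and 47.6% in the Il21 window, against a median of 52.4%. A match of letters is a description of the sequence and does not show a bound site. Only fixed letters were searched, so a site that varies from them is missed, and the lack of a match does not show that a site is absent.

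The sort was checked with Foxp3, the defining gene of Treg. Its level was 11.3 to 12.34 on the 21 Treg arrays and 7.02 to 8.20 on the 21 Tconv arrays, with no overlap, although the labels of the cultured Treg give the gate as GFP-. Cd4 was 10.41 to 11.45 on Treg arrays and 10.45 to 11.84 on Tconv arrays. Array medians lay between 87.6 and 116.4 in intensity, and interquartile ranges between 1.645 and 3.208 log2 units. Array 1 of cultured Tconv at 0 h had the narrowest range and stood apart from the rest, with a mean correlation of 0.787 to the other arrays. The level of a gene in sorted cells is an average, in which fewer cells that make the RNA and less RNA per cell cannot be told apart.

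In mice injected with KT3, Il2 stood far lower in Treg than in Tconv at 2 and 8 h, and it was near the same low level in both before and after. Il2 in Treg had log2 intensities of 4.76 and 5.08 at 0 h, 4.96 and 4.80 at 2 h, 4.64 and 5.23 at 8 h, 4.49 and 5.01 at 24 h, and 4.90 and 4.78 at 72 h. Il2 in Tconv had 4.91 and 4.76 at 0 h, 7.98 and 7.58 at 2 h, 7.33 and 8.46 at 8 h, 4.83 and 5.43 at 24 h, and 5.02 and 4.94 at 72 h. Each of the 4 Tconv arrays of 2 and 8 h lay above each of the 10 Treg arrays after KT3 or at 0 h, whereas the groups overlapped at 0 and 24 h. At 72 h both Treg arrays lay below both Tconv arrays, by a small step.

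As intensities, Il2 averaged 29.5 ± 2.2 in Treg and 221.9 ± 44.1 in Tconv at 2 h (SD, n = 2 each), and 31.2 ± 8.9 in Treg and 256.0 ± 134.6 in Tconv at 8 h. The Treg minus Tconv difference of Il2 was -2.90 ± 0.27 at 2 h, or 7.47-fold lower in Treg, and -2.96 ± 0.27 at 8 h, or 7.77-fold lower (SE of the fit here and below). At 0, 24 and 72 h it was 0.09, -0.38 and -0.14. At 2 h, 21.2% of all genes had Treg and Tconv arrays that did not overlap with Treg lower, as both cytokine genes had, and at 8 h 24.8% had. The genes were chosen on this contrast, so nothing is read from that count.

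Against its own 0 h, the Il2 level in Tconv was higher by 2.95 at 2 h and 3.06 at 8 h, and by 0.30 and 0.15 at 24 and 72 h. In Treg the same differences were -0.05, 0.01, -0.17 and -0.08, each smaller than its SE of 0.27. Il2 was thus already near its highest level at 2 h in Tconv: the step between 2 and 8 h was 0.11 ± 0.27, and the step between 8 and 24 h was -2.76 ± 0.27. The 2 Tconv arrays of 8 h differed by more than any other pair of Il2 values in a group. The lower one, at 7.33, was labelled double sorted and the higher one, at 8.46, single sorted, and the part of the sort in that spread was not tested.

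Il21 in Tconv was higher at 8 h than at 2 h, whereas the Il2 arrays of these times overlapped, and Il21 was also above its 0 h level in Treg at 8 h. Il21 in Treg had 4.32 and 4.09 at 0 h, 4.62 and 4.71 at 2 h, 5.79 and 5.82 at 8 h, 4.88 and 4.45 at 24 h, and 4.31 and 4.14 at 72 h. Il21 in Tconv had 4.52 and 4.87 at 0 h, 7.14 and 6.75 at 2 h, 9.49 and 9.70 at 8 h, 5.90 and 5.67 at 24 h, and 4.75 and 5.03 at 72 h. Treg lay below Tconv on every array at each of the 5 times, 0 h included. The Treg arrays of 8 h were above all other Treg arrays of this gene, and they lay between the Tconv arrays of 24 h.

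In intensity, Il21 averaged 25.4 ± 1.1 in Treg and 124.5 ± 23.9 in Tconv at 2 h (SD, n = 2 each), and 56.0 ± 0.8 in Treg and 773.5 ± 78.9 in Tconv at 8 h. The Treg minus Tconv difference of Il21 was -0.49 at 0 h, -2.28 at 2 h, -3.78 at 8 h, -1.11 at 24 h and -0.67 at 72 h (SE 0.20), or 4.87-fold lower in Treg at 2 h and 13.8-fold lower at 8 h. Relative to 0 h, Il21 in Tconv was higher by 2.25, 4.90, 1.09 and 0.20 at 2, 8, 24 and 72 h. In Treg it was higher by 0.46, 1.60, 0.47 and 0.02. The 8 h value in Treg is 3.04 times its 0 h intensity, against 29.8 times in Tconv.

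The courses of Il21 and Il2 in Tconv parted between 2 and 8 h, where Il21 gained another 2.64 ± 0.20 while Il2 gained 0.11 ± 0.27. By 24 h Il21 had dropped by 3.81 from its 8 h level, as Il2 had dropped by 2.76. Il21 remained 1.09 above 0 h at that time and Il2 0.30, and by 72 h both were within 0.20 of 0 h.

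**Figure D1:**
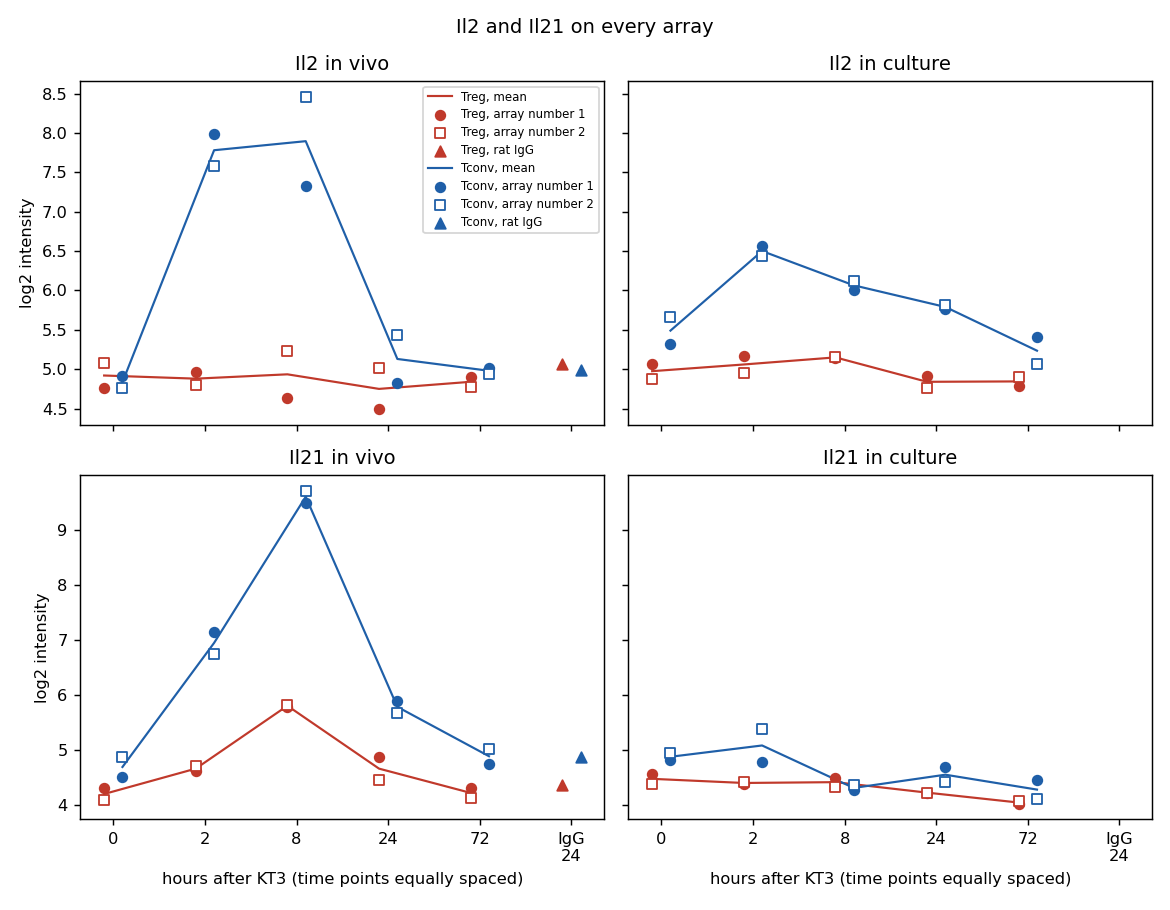
Log2 intensity (y axis) of Il2 (upper panels) and Il21 (lower panels) against hours after KT3 (x axis, equally spaced) in vivo (left) and in culture (right). Points are single arrays, filled for number 1 and open for number 2, lines join the means of 2 arrays, Treg is red and Tconv blue, and triangles are the rat IgG arrays. The Tconv arrays of 2 and 8 h in vivo stand at 7.33 to 8.46 for Il2 and at 6.75 to 9.70 for Il21, while the Treg line of Il2 is flat and that of Il21 reaches 5.81 at 8 h.

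When KT3 was added to splenocytes in culture, Il2 in Tconv reached a lower level that came at 2 h and waned slowly, and Il2 in Treg stayed near its starting level. Il2 in Treg had 5.07 and 4.88 at 0 h, 5.17 and 4.95 at 2 h, 5.14 and 5.16 at 8 h, 4.92 and 4.76 at 24 h, and 4.79 and 4.90 at 72 h. Il2 in Tconv had 5.32 and 5.66 at 0 h, 6.56 and 6.44 at 2 h, 6.01 and 6.12 at 8 h, 5.76 and 5.82 at 24 h, and 5.41 and 5.06 at 72 h. The Tconv arrays lay above the Treg arrays at all 5 times, 0 h included. In intensity the 2 h means were 33.5 ± 3.6 in Treg and 90.6 ± 5.6 in Tconv (SD, n = 2 each).

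The Treg minus Tconv difference of Il2 in culture was -0.52 at 0 h, -1.44 at 2 h, -0.92 at 8 h, -0.95 at 24 h and -0.39 at 72 h (SE 0.27). At 2 h in culture 23.4% of all genes had arrays that did not overlap with Treg lower, and at 8 h 33.8%. From its own 0 h, Il2 in Tconv was higher by 1.01 at 2 h, 0.58 at 8 h and 0.30 at 24 h, and lower by 0.25 at 72 h. Without the Tconv array of 0 h that stands apart, the 2 h and 8 h differences were 0.84 and 0.41. In Treg the differences from 0 h were 0.09, 0.18, -0.13 and -0.13.

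Il21 stayed dim in both cultured populations, and at 72 h it was below its 0 h level in each. Il21 in Treg had 4.57 and 4.39 at 0 h, 4.38 and 4.43 at 2 h, 4.5 and 4.34 at 8 h, 4.23 and 4.23 at 24 h, and 4.03 and 4.07 at 72 h. Il21 in Tconv had 4.82 and 4.94 at 0 h, 4.79 and 5.38 at 2 h, 4.27 and 4.36 at 8 h, 4.69 and 4.42 at 24 h, and 4.45 and 4.12 at 72 h. The highest of these 20 values, 5.38, was on the male array of Tconv at 2 h, and it lay below each of the 6 Tconv arrays of 2, 8 and 24 h in vivo.

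Il21 in cultured Tconv differed from its 0 h by 0.20, -0.57, -0.33 and -0.59 at 2, 8, 24 and 72 h, and in cultured Treg by -0.07, -0.07, -0.25 and -0.43. The Treg minus Tconv difference was -0.67 at 2 h, and the gap at 8 h was 0.10, with overlapping arrays (SE 0.20). Both genes lay above the median of their array on only 4 arrays each, the Tconv arrays of 2 and 8 h in vivo. RMA compresses differences among dim clusters, and no detection call was used here, so differences among the dim groups are given as values.

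Whether the course after KT3 differed between injection and culture was asked within each cell type with a moderated F-test over the 4 in vivo minus culture differences in response, at 2, 8, 24 and 72 h. In Tconv the same in vivo arrays chose both genes and alone took them past the filter on dim genes, so no test is given for them there. Over the array, 6.37% of all genes passed in Tconv (791 genes, or 5240 without Tconv array 2 of 0 h in culture, which leaves the array that stands apart). In Treg, whose arrays did not carry the genes past the filter, Il21 passed with an adjusted p of 0.00195 and Il2 did not (adjusted p = 1.0, limma, Benjamini-Hochberg over all genes tested), where 10.9% of all genes passed. The Treg in vivo arrays are also part of the comparison for which the genes are known. The test is therefore not independent of their choice, and no conclusion is drawn from it. Whether the genes differ from each other in this, or Treg from Tconv, was not tested.

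For Il2 in Tconv, the in vivo response exceeded the culture response by 1.93 ± 0.38 at 2 h and 2.48 ± 0.38 at 8 h, and by 0.40 at 72 h, while at 24 h the ratio of the in vivo to the culture response was 0.998. For Il21 in Tconv it exceeded it by 2.05 ± 0.28 at 2 h, 5.46 ± 0.28 at 8 h, 1.41 at 24 h and 0.79 at 72 h. For Il21 in Treg the same differences were 0.54, 1.67, 0.72 and 0.45 (SE 0.28), so that the largest gap between settings was at 8 h in both cell types. For Il2 in Treg they were -0.14, -0.17, -0.05 and 0.04 (SE 0.38). Without the Tconv array of 0 h that stands apart, Il2 in Tconv had 2.10 at 2 h and 2.65 at 8 h, and Il21 had 2.10 and 5.52.

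Compared as levels, without the 0 h arrays, Il21 in Treg had an adjusted p of 0.000148 (limma). That test is likewise not independent of the gene's choice, which rests on the same in vivo arrays. At 8 h the Il21 level was 5.28 ± 0.20 higher in vivo than in culture in Tconv and 1.39 ± 0.20 higher in Treg, against dim culture values, so the sizes are those of the RMA values only. On the female culture array of 8 h, Il21 in Treg was 4.5, against 5.79 and 5.82 in vivo. Il21 in Tconv was 4.27 there, against 9.49 and 9.70 in vivo, and Il2 in Tconv was 6.01 against 7.33 and 8.46. These values rest on a single culture array per cell type, and the part of sex was not tested. For Il2 in Tconv the in vivo minus culture difference in level was -0.66 ± 0.27 at 0 h, 1.28 at 2 h, 1.83 at 8 h and -0.66 at 24 h.

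**Figure D2:**
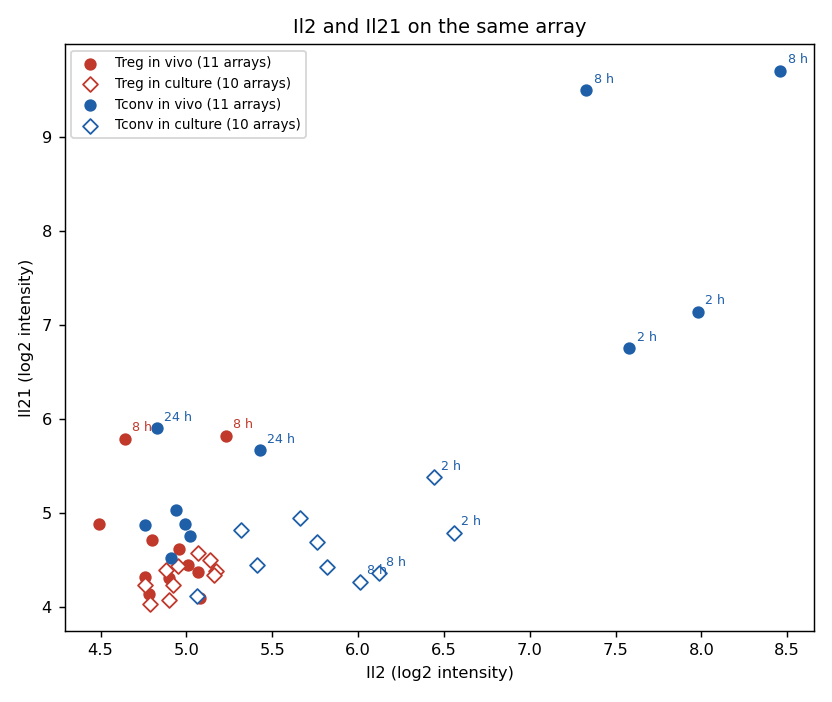
Il21 (y axis) against Il2 (x axis), both as log2 intensity, with 1 point for each of the 42 arrays; red is Treg and blue Tconv, filled circles are in vivo and open diamonds in culture. The 4 Tconv arrays of 2 and 8 h in vivo stand apart at the upper right, the Treg arrays of 8 h in vivo lie at an Il21 of 5.79 and 5.82 with Il2 at 4.64 and 5.23, and the cultured Tconv arrays of 2 and 8 h extend along the Il2 axis only.

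Ordered over all 22 groups, Il2 was highest in Tconv at 8 h in vivo (mean 7.89) and 2 h in vivo (7.78), whose arrays overlapped. It was next highest in cultured Tconv at 2 h (6.5), 8 h (6.07), 24 h (5.79) and 0 h (5.49), each with arrays below those of the group before it. From cultured Tconv at 72 h (5.24) down to Treg at 24 h in vivo (4.75), each group overlapped its neighbour in the order, and no order is read among them. All 11 Treg groups were among these. Every group but the first 2 lay below its arrays' medians.

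For Il21 the order was Tconv at 8 h in vivo (9.59), Tconv at 2 h in vivo (6.95), and then Treg at 8 h in vivo (5.81) with Tconv at 24 h in vivo (5.78), whose arrays overlapped. Cultured Tconv at 2 h (5.08) came below them, and its arrays overlapped those of Tconv at 72 h in vivo (4.89). Here too every group after the first 2 lay below its arrays' medians, where the order is only that of these values.

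At 24 h after injection of rat IgG alone, both genes were near their 0 h level. The earlier times, when KT3 raised both genes in Tconv, had no IgG array. Whether injection alone moved the genes at those times was therefore not tested. At 24 h after KT3 itself, Il2 was at 0.30 from 0 h in Tconv and -0.17 in Treg, and Il21 at 1.09 in Tconv and 0.47 in Treg. Il2 on the IgG array was 5.07 in Treg and 4.99 in Tconv, and Il21 was 4.37 in Treg and 4.88 in Tconv. IgG minus 0 h was 0.14 ± 0.33 in Treg and 0.16 ± 0.33 in Tconv for Il2, and 0.17 ± 0.24 in Treg and 0.19 ± 0.24 in Tconv for Il21. None passed (adjusted p = 0.997 for both genes in Treg and 1.0 for both in Tconv, limma), and 0% of all genes passed in either cell type, with 198 genes in Treg and 19 in Tconv at an unadjusted p under 0.05. The fit assumes that a lone IgG array has the spread of the remaining groups. With so few arrays the lack of calls cannot show that IgG had no effect, and no conclusion is drawn from it. At 24 h, KT3 minus IgG was 0.30 in Treg and 0.90 in Tconv for Il21 (SE 0.24), and -0.32 in Treg and 0.14 in Tconv for Il2 (SE 0.33).

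Genes that act before or after these cytokines were followed in lists, which were drawn up with earlier results of these data known and which hold genes known to define Treg, such as Foxp3 and Il2ra. Of 93 list genes tested, 15 were higher and 5 lower in Treg at 2 h in vivo, where 2.94% of all genes were called higher and 0.515% lower (3.45% in all). Again 15 were higher and 5 lower at 8 h in vivo, against 3.2% and 1.07% of all genes (4.27% in all). At 2 h in culture 14 were higher and 5 lower, against 2.74% and 0.531% (3.27% in all), and at 8 h in culture 35 were higher and 5 lower, against 17.2% and 6.61% (23.8% in all). Calls are limma's, at a Benjamini-Hochberg adjusted p under 0.05 over the whole array. With 1 of the 4 arrays left out, 15 to 19 list genes were called at 2 h in vivo, 12 to 15 at 8 h in vivo, 14 to 15 at 2 h in culture and 28 to 41 at 8 h in culture. The count at 8 h in vivo was 35 without the cultured Tconv array of 0 h that stands apart. Without the 3 cultured arrays of narrowest range it was 35 at 2 h and 39 at 8 h in vivo, and with the array number as a block it was 31 at 8 h in vivo. Over all genes called in culture, 83.7% were higher in Treg at 2 h and 72.3% at 8 h, against 73.5% and 58.1% after quantile normalization and 89.4% and 84.6% after median centring. After that centring the median difference over the array was 0.15 at 8 h in culture and 0.12 at 2 h in vivo. The 2959 genes called in all at 8 h in culture came down to 635 without Tconv array 1 of that time.

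The alpha and beta chains of the interleukin-2 receptor were higher in Treg at every one of these 4 points. Of 6 chains and kinases listed, 4 were tested; Il2rg, the common gamma chain, and Jak3 had no value here. Il2rb, the beta chain, had a mean level of 11.98 in Treg and 9.45 in Tconv at 2 h in vivo (2.54 ± 0.25, adjusted p = 1.06e-07, limma), and it was higher by 1.98 at 8 h in vivo and by 2.24 and 2.45 at 2 and 8 h in culture. Il2ra, the alpha chain, was higher by 1.86 and 1.72 in vivo and by 3.03 and 2.58 in culture. Il21r, the receptor of interleukin-21, had 11.17 in Treg and 11.01 in Tconv at 2 h in vivo and was not called (adjusted p = 0.751), nor was Jak1 (0.17, adjusted p = 0.818). The list had a median difference of 1.02 at 2 h in vivo, where all genes had 0.03.

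Downstream of the receptors, 3 of 10 STAT and feedback genes were higher at 2 h in vivo, 4 at 8 h in vivo, 2 at 2 h in culture and 9 at 8 h in culture, and none was lower. Socs2, a feedback inhibitor induced by STAT5, had the largest difference of the list at each point in vivo, with 10.1 in Treg and 5.53 in Tconv at 2 h (4.57 ± 0.25) and 3.79 at 8 h; in culture it was 1.70 at 2 h and 4.89 at 8 h. Cish, another STAT5 target, was higher by 0.93 and 1.04 in vivo, and Socs3, which STAT3 induces, by 1.37 at 8 h in vivo. Osm, a cytokine gene that STAT5 also induces, was higher by 1.19 at 2 h and 0.68 at 8 h in vivo; the call at 8 h was lost under 7 of 11 alternatives. Stat5a was higher by 0.94 at 2 h in culture, and Bcl2, a survival factor, by 1.95, Stat5b by 1.42 and Stat3 by 1.37 at 8 h in culture. These levels come from the same arrays on which Il2 itself was low in Treg.

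Of 16 tested factors known to activate Il2 or Il21, 15 were not called at 2 h or at 8 h in vivo. The exception was Pou2af1, a coactivator best known from B cells, with 7.48 in Treg and 8.88 in Tconv at 2 h (-1.41 ± 0.39, adjusted p = 0.0438, limma) and -1.48 at 8 h. Its call at 2 h was lost with median centring and without the filter on dim genes. Nfatc1 had -0.85 ± 0.26 (adjusted p = 0.0809), Fos -1.41 ± 0.56 (adjusted p = 0.23), Batf 0.95 and Rel 0.99 at 2 h in vivo, none called. Maf, an activator of Il21, had 9.30 in Treg and 8.11 in Tconv at 2 h in vivo (1.19, adjusted p = 0.0652), and in culture at 2 h it was higher by 1.29 (adjusted p = 0.042), a call lost under 6 of 11 alternatives. In culture at 8 h, 7 factors were higher and 1 lower in Treg: Rel (2.01), Jun (1.84) and Tbx21 (1.80) led, and Pou2af1 was at -2.29.

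Of 14 tested factors known to repress Il2, 4 were higher and 1 lower in Treg at 2 h in vivo. Foxp3, on which the cells were sorted, differed by 4.93 ± 0.27. Ikzf2 and Ikzf4, the Ikaros family members Helios and Eos, which Treg are known to express, were higher by 3.95 and 2.45. Prdm1, which encodes Blimp-1, a repressor of Il2 in T cells, had 8.84 in Treg and 6.62 in Tconv (2.23 ± 0.22, adjusted p = 1.28e-07, limma). Egr3, a receptor-induced factor that limits T cell activation, was lower in Treg, with 8.55 in Treg and 9.78 in Tconv (-1.23). The same 4 genes were higher at 8 h in vivo, Ikzf2 by 3.69, Prdm1 by 2.35, Ikzf4 by 2.21 and Foxp3 by 4.67, and none was lower. In culture 4 were higher and 2 lower at 2 h, where Ikzf3 (Aiolos) was higher by 1.77 and the lower ones were Egr3 (-1.49) and Egr2 (-1.19). Later, at 8 h in culture, 6 were higher and 1 lower, with Zeb1, a known repressor at the Il2 promoter, higher by 2.35 and Dgkz, a kinase that removes diacylglycerol, at -0.60.

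Genes of the T cell receptor and costimulatory pathway upstream of both cytokines were mostly not called. None of 16 passed at 2 h in vivo, and the list's median difference was -0.07; the largest was 0.85 for Ppp3ca, the catalytic subunit of calcineurin (adjusted p = 0.268, limma). Ppp3ca was higher by 1.27 at 8 h in vivo, a call lost under 7 of 11 alternatives, and Zap70, the kinase that binds the engaged receptor, had 9.85 in Treg and 10.89 in Tconv (-1.04 ± 0.25, adjusted p = 0.0153). None passed at 2 h in culture, where Rasgrp1, an activator of Ras, had 0.98 (adjusted p = 0.197). At 8 h in culture Ppp3ca (2.06) and Cd247 (0.95), the zeta chain, were higher and Zap70 (-1.42) and Lat (-1.10), an adaptor that Zap70 phosphorylates, were lower. A missed threshold does not show that the levels were alike.

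Other cytokine genes did not all follow Il2 and Il21. Of 21 listed, 16 were tested, and Il3, Il5, Il9 and Csf2 were too dim to test. At 2 h in vivo Ifng, interferon-gamma, had 6.03 in Treg and 7.90 in Tconv (-1.87 ± 0.32, adjusted p = 0.000414, limma), and Il4 had 5.53 in Treg and 7.0 in Tconv (-1.47 ± 0.26, adjusted p = 0.000688). In the other direction Lif had 9.91 in Treg and 8.34 in Tconv (1.56), Lta, lymphotoxin alpha, had 8.93 in Treg and 7.41 in Tconv (1.52), and Csf1 (1.42) and Osm (1.19) were also higher. At 8 h in vivo Csf1, macrophage colony-stimulating factor, was higher by 2.00, Osm by 0.68, and Ifng was at -1.33. At 2 h in culture Il10, an inhibitory cytokine, was higher by 2.64, and Tnf (-1.85) and Tnfsf11 (-1.0), which encodes RANK ligand, were lower. Csf1 and Lif were higher at 8 h in culture, by 2.06 and 1.38, and none of the 16 was lower. The list's median difference was 0.14 at 2 h and 0.06 at 8 h in vivo, and -0.39 at 2 h and 0.02 at 8 h in culture.

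Genes known as markers of the helper cells that make interleukin-21 were not lower as a list in Treg. At 2 h in vivo 3 of 9 were higher: Il23r, a receptor chain of Th17 cells, with 7.46 in Treg and 5.04 in Tconv (2.42), Icos, a costimulatory receptor of follicular helper cells, by 1.99, and Ccr6, a Th17 chemokine receptor, by 1.89. Cd40lg, the helper ligand for B cells, was lower, with 6.66 in Treg and 8.60 in Tconv (-1.94 ± 0.42, adjusted p = 0.00611, limma). Not called at 2 h were Sh2d1a (0.71), Cxcr5 (0.68), Pdcd1 (-0.13), Tox2 (-0.22) and Bcl6 (-1.02). Ccr6 (1.89), Il23r (1.44) and Icos (1.26) were higher at 8 h in vivo and none was called lower. Not called at 8 h were Pdcd1 (0.46), Sh2d1a (0.29), Tox2 (-0.1), Cxcr5 (-0.41), Bcl6 (-0.94) and Cd40lg (-1.38). In culture 4 of 9 were higher and 1 lower at 2 h. The higher ones were led by Ccr6 (1.86), Pdcd1 (1.62), an inhibitory receptor, and Cxcr5 (1.48), the follicular homing receptor, and the lower one was Cd40lg (-2.03). At 8 h in culture 5 were higher and none lower, led by Icos (2.81), Ccr6 (2.08), Pdcd1 (1.60) and Sh2d1a (1.36), the adaptor SAP.

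Markers of other cells are given beside these values. The summed intensity of 6 follicular helper markers in vivo was 4603 and 5087 in Treg and 2748 and 2106 in Tconv at 2 h, and 3919 and 3668 in Treg and 2778 and 2549 in Tconv at 8 h. At 0 h it was 3719 and 3388 in Treg and 1341 and 1239 in Tconv. Such a sum is weighted to the brightest gene, Icos, with mean log2 levels of 11.69 in Treg and 9.7 in Tconv at 2 h. Cxcr5 (8.69 in Treg against 8.02) and Sh2d1a (7.57 against 6.86) were also higher in Treg at that time. Bcl6 (7.41 against 8.43), Tox2 (7.3 against 7.52) and Pdcd1 (9.19 against 9.32) were lower. In Tconv 5 of the 6 were above both 0 h arrays at 2 h and 4 at 8 h. The share of all genes that were so was not counted, so nothing is read from these counts. The sum in Tconv was still 2607 and 2733 at 24 h and 2184 and 2303 at 72 h, when Il21 averaged 5.78 and 4.89. The part of these cells in the Il21 level was not tested. In cultured Tconv it was 3865 and 4736 at 2 h against 702 and 1118 at 0 h, with Il21 at 4.79 and 5.38. The summed intensity of 4 Th17 markers in Tconv in vivo was 293 and 243 at 8 h, against 284 and 247 at 0 h.

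For 32 markers of B cells, macrophages, neutrophils, dendritic cells, NK cells, CD8 T cells, erythroid cells and platelets together, the sum at 8 h in vivo was 7141 and 1919 in Treg and 3300 and 1828 in Tconv, and at 0 h it was 3529 and 2032 in Treg and 3269 and 1954 in Tconv. Above both 0 h arrays were 2 of the 32 in Treg and 1 in Tconv at 8 h. Here too the share of all genes was not counted, and nothing is read from these counts. Array 1 had the higher sum in all 10 in vivo groups with 2 arrays, by the most in Treg at 72 h (7816 against 1787). Il21 stood at 5.79 and 5.82 on the Treg arrays of 8 h with sums of 7141 and 1919. The part of other cells in the Il21 level of Treg was not tested. Array intensities have no true zero, and none of these markers was listed at 0.

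Some calls of the named list genes were lost when a single array was left out; the range over all 11 alternatives is given in brackets, and no direction turned. At 2 h in vivo these were Cish (0.77 to 1.09), Lif (1.14 to 1.99) and Cd40lg (-2.4 to -1.48), each without either Treg array or without Tconv array 2. Egr3 (-1.41 to -1.05), the 1 repressor lower in Treg at that time, was lost without Treg array 2, and Csf1 (1.18 to 1.66) without Tconv array 2. Pou2af1 (-2.02 to -0.79) was lost there without Tconv array 1 or Treg array 2. At 8 h in vivo Osm (0.5 to 0.81) and Ppp3ca (1.03 to 1.47) were lost without any one of the 4 arrays. Zap70 (-1.21 to -0.87) and Icos (1.18 to 1.48) were lost without either Treg array or Tconv array 1, and Ifng (-1.57 to -1.1) without either Treg array or Tconv array 2. Pou2af1 (-2.13 to -0.82) was lost at that time without either Tconv array or Treg array 2, and Cetn4 (-1.52 to -0.82) without either Tconv array or Treg array 1. Socs3 (1.27 to 1.48) needed Tconv array 2 and Treg array 2, Cish (0.78 to 1.3) Tconv array 1 and Treg array 2, and Spry1 (-1.49 to -0.92) Tconv array 2.

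In culture at 2 h, Maf (1.11 to 1.45) and Egr2 (-1.38 to -1.0) were lost without any one of the 4 arrays, Egr2 also with median centring, Tnfsf11 (-1.21 to -0.79) without either Treg array or Tconv array 2, and Cxcr5 (1.05 to 1.92) without either Tconv array or Treg array 1. Ikzf3 (1.54 to 1.99) needed Tconv array 1 and Treg array 2, and Cd40lg (-2.51 to -1.54) needed Tconv array 1. In culture at 8 h, Sh2d1a (0.63 to 2.09) was lost without either Treg array or Tconv array 1, and Jun (1.42 to 2.26) without either Tconv array or Treg array 1. 4932438A13Rik (1.53 to 3.22) and Bbs12 (0.65 to 1.04) needed Tconv array 1 and Treg array 2, Lat (-1.33 to -0.86) both arrays numbered 2, and Lif (0.7 to 2.06) both arrays numbered 1. Rel (1.62 to 2.39) and Cd247 (0.7 to 1.12) needed Tconv array 1. Dgkz (-0.75 to -0.47) was lost without any one of the 4 arrays, with median centring, without the filter and without the 3 cultured arrays of narrowest range.

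**Figure D3:**
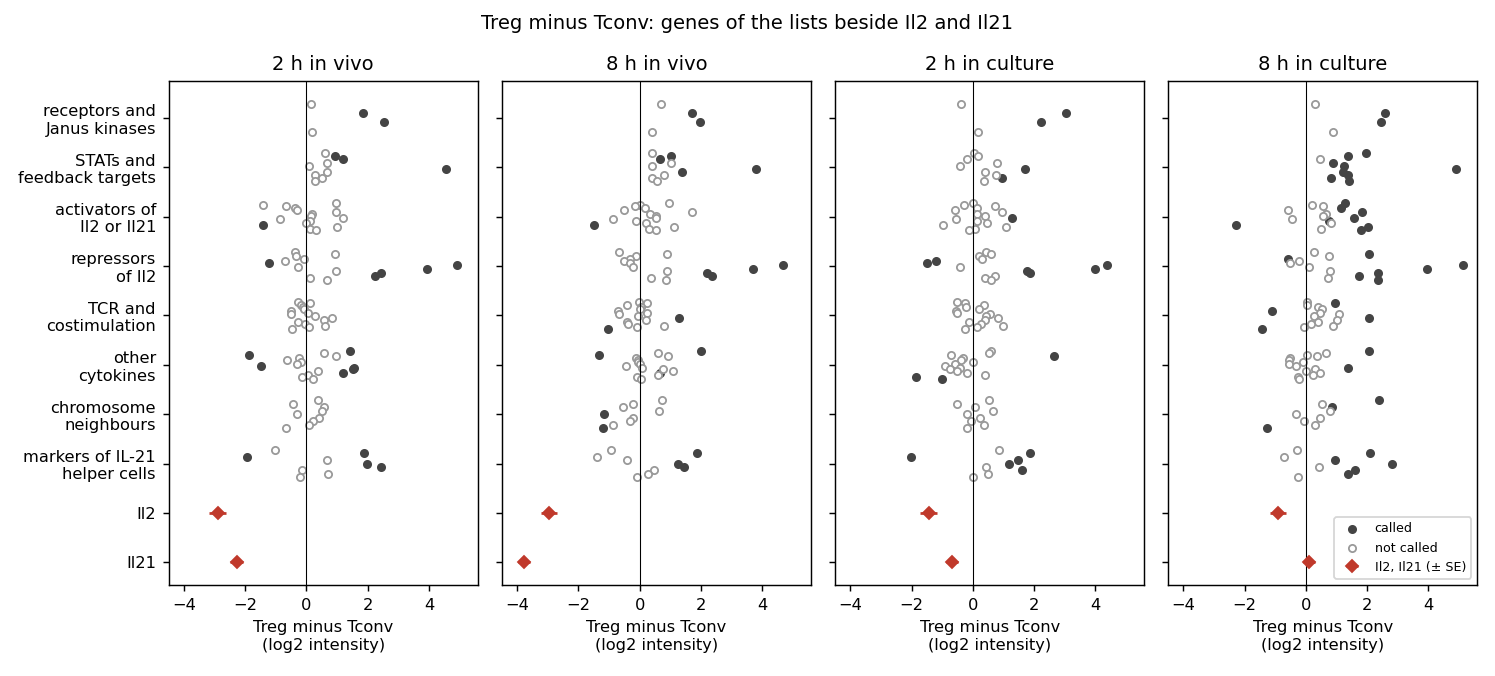
Treg minus Tconv difference in log2 intensity (x axis) for each tested gene of 8 lists (rows) and for Il2 and Il21 (red diamonds, with the SE of the fit), at 2 and 8 h in vivo and at 2 and 8 h in culture; filled points were called at an adjusted p under 0.05 and open points were not. Il2 and Il21 lie at -2.90 and -2.28 at 2 h in vivo and at -2.96 and -3.78 at 8 h, left of all list genes in both panels.

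Il2 and Il21 are neighbours on chromosome 3, with no protein-coding gene between them in RefSeq's gene order, so the genes around them were followed too. Of 12 neighbours with a transcript cluster, 9 were tested, and Bbs7, Adad1 and Fgf2 were too dim. Treg minus Tconv passed for none of the 9 at 2 h in vivo, where Spry1, an inhibitor of Ras signalling at the far end of the row, had the largest difference (-0.67, adjusted p = 0.128, limma). At 8 h in vivo Cetn4, a centrin gene next to Il21, had -1.17 ± 0.28 (adjusted p = 0.0135), and Spry1 had 7.75 in Treg and 8.95 in Tconv (-1.21 ± 0.23, adjusted p = 0.00128). The Cetn4 call was lost with quantile normalization. None passed at 2 h in culture, where Ccna2, a cyclin, had 0.66 (adjusted p = 0.517). Spry1 was at -1.28 at 8 h in culture, and 4932438A13Rik (2.38) and Bbs12 (0.84) were higher; the calls of these last 2 were lost without the 3 cultured arrays of narrowest range.

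The responses of the neighbours to KT3 are given as values. Bbs12, 2 genes from Il21, was 0.63 above 0 h at 8 h in vivo in Treg and 1.49 in Tconv (SE 0.23), and in culture 0.59 in Treg and 0.05 in Tconv. Fgf2, the next gene, was 0.42 above 0 h in Treg and 1.5 in Tconv in vivo, and in culture it was at -0.29 and -0.36 in those cells. Cetn4 was 0.05 above 0 h in Treg and 0.75 in Tconv in vivo and below 0 h in culture (-0.25 in Treg and -0.62 in Tconv). Spata5 and Spry1, farther on the same side, were 0.96 and 0.27 above 0 h in Treg and 2.24 and 2.11 in Tconv in vivo, and in cultured Tconv they were 1.89 and 1.84 above it.

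On the Il2 side, Adad1, the next gene, had -0.01 in Treg and -0.11 in Tconv at 8 h in vivo. Beyond it, 4932438A13Rik had -0.52 in Treg and -0.73 in Tconv, and Bbs7 had 0.13 in Treg and -0.11 in Tconv. Farther out, Exosc9, an exosome subunit, had 0.65 in Treg and 1.14 in Tconv, and Anxa5 had -0.37 in Treg and -0.47 in Tconv. Ccna2 had -0.83 in Treg and -0.41 in Tconv. On the Il21 side, Nudt6, which overlaps Fgf2 on the other strand, had 0.05 in Treg and 0.19 in Tconv. Over the 12 neighbours the 8 h response in vivo spanned -0.83 to 0.96 in Treg and -0.73 to 2.24 in Tconv, below the 3.06 of Il2 and 4.90 of Il21 in Tconv.

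**Figure D4:**
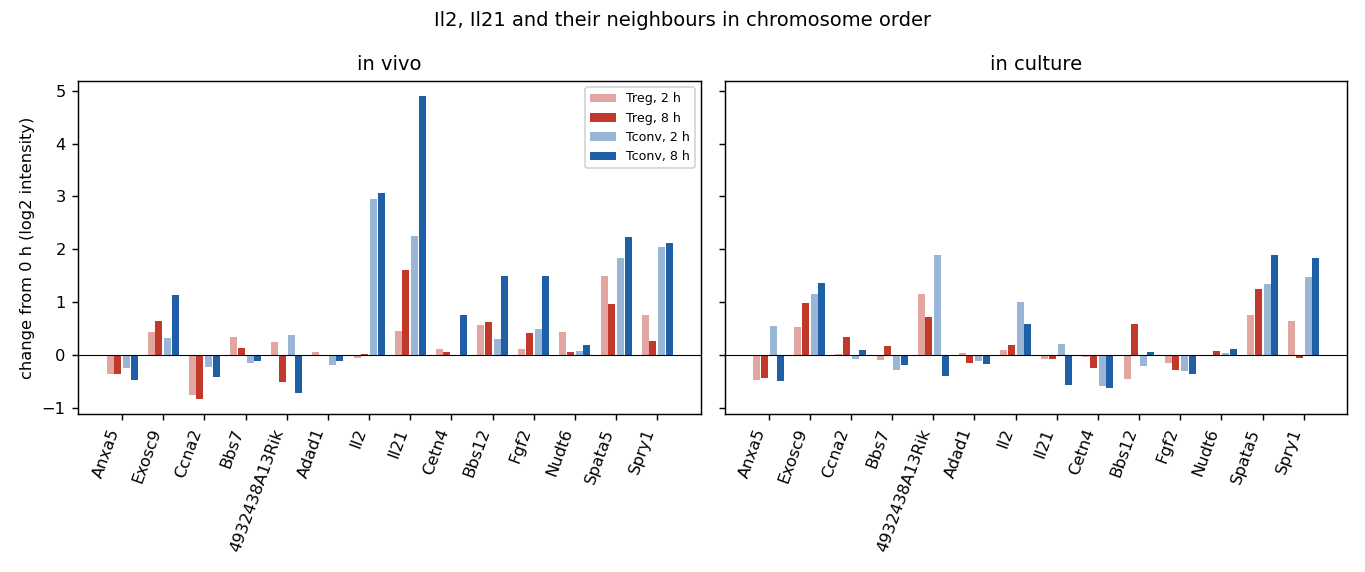
Change from 0 h in log2 intensity (y axis) for Il2, Il21 and 12 neighbours in their order along the chromosome (x axis, not to scale), in vivo (left) and in culture (right); red bars are Treg and blue bars Tconv, pale for 2 h and full for 8 h, as differences of group means with no error bars. In vivo the Tconv bars of Il2 (2.95 and 3.06) and Il21 (2.25 and 4.90) stand above all neighbours, of which Spata5 (2.24) and Spry1 (2.11) are the highest at 8 h.

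The genes whose course was most like that of each cytokine gene were ranked by Pearson's r over the 22 group means among 11940 genes. These means share arrays and the same few peaks, so r is a description with no p. For Il2 they were Ifng (r = 0.88), Polr2h, a subunit of the RNA polymerases (0.82), Crabp2, which binds retinoic acid (0.81), Il21 (0.79), Slc15a1, a peptide transporter (0.78), Abt1 (0.78), Sh3bp2, a signalling adaptor (0.76), and Spryd4 (0.76). For Il21 they were Gstm1, a glutathione transferase (0.89), Slc15a1 (0.88), Dnah12, an axonemal dynein (0.83), Crabp2 (0.82), Prelid2 (0.82), Il2 (0.79), Gaa, lysosomal alpha-glucosidase (0.77), and Med9, a Mediator subunit (0.77). Il21 was rank 4 for Il2 and Il2 was rank 6 for Il21, and the lists of 8 shared 2 genes, Crabp2 and Slc15a1, or 2 of 8 in each. Over the 42 single arrays r between Il2 and Il21 was 0.77.

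Like Il2 and Il21, the genes named had higher means in Tconv than in Treg at 8 h in vivo. The ranking by likeness to these 2 genes favours such genes, so this is not a separate result. Ifng had group means of 6.03 in Treg and 7.90 in Tconv at 2 h in vivo and 6.21 in Treg and 7.55 in Tconv at 8 h, and all its Treg means in vivo lay between 5.98 and 6.21. Crabp2 was at 6.36 in Treg and 9.10 in Tconv at 8 h, Prelid2 at 8.19 in Treg and 10.26 in Tconv, and Gstm1 at 6.61 in Treg and 7.90 in Tconv. Slc15a1 had 5.2 in Treg and 6.94 in Tconv at 8 h, but 4.95 in Treg and 5.49 in Tconv at 2 h, where Il2 was already high. By Spearman's rank correlation none of the 8 genes most like Il2 and 2 of the 8 most like Il21 were kept; over the 42 arrays 5 and 7 of the 8 were kept.

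**Figure D5:**
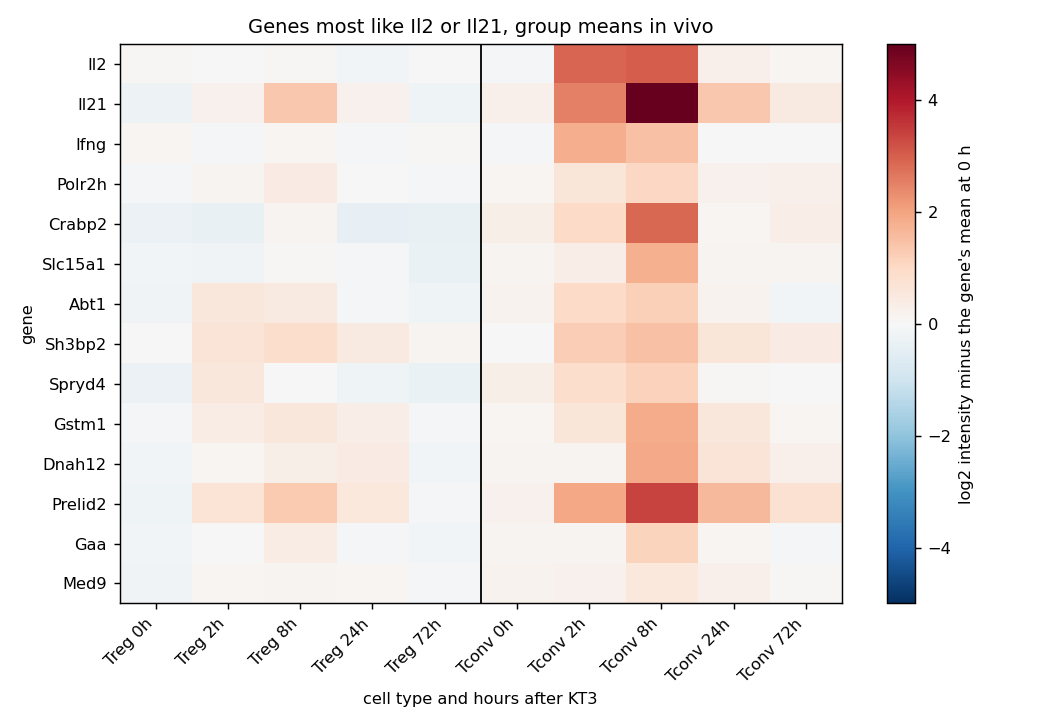
Group means in vivo of Il2, Il21 and the genes most like either (rows) by cell type and hours after KT3 (columns, Treg left of Tconv), coloured by log2 intensity minus the mean of the gene's Treg and Tconv levels at 0 h. The dark cells are in the Tconv columns of 2 and 8 h; in the Treg column of 8 h, Il21 (5.81, against 4.20 at 0 h) and Prelid2 (8.19, against 6.67) are also coloured, and Il2 (4.93, against 4.92) is not.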

How the data were processed

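RNA of sorted cells was amplified and hybridized to Affymetrix ST1.0 arrays. The deposited values are linear RMA intensities per transcript cluster, which the authors made with Affymetrix Power Tools and RMA, per the submitters' processing notes; RMA in GenePattern is named in the series' design text. No source used here says whether all arrays were normalized together. Intensities were turned to log2 here with no offset. Of 24922 clusters, 21425 had 1 symbol in the platform annotation, 1399 had several and 2098 were not listed; each symbol was read from its cluster of highest mean. Kept were the 12425 of 19752 genes that exceeded their array's median on 2 or more of the 42 arrays, and the remaining 7327 were called dim.

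One limma model (version 3.58.1, R 4.3.3; lmFit and eBayes) with a mean for each of the 22 groups gave differences, standard errors and p-values adjusted by Benjamini-Hochberg over all genes tested. The scripts were tested on simulated data. Il2, Il21 and all gene lists were chosen with earlier results of these data known. Up to 4 called genes of largest difference were named per list and comparison, or the largest where none was called, with all chromosome neighbours and the 8 genes most alike; Egr2, Egr3, Dgkz, and Csf1 at 2 h in vivo, and the genes given as not called beside them, were added after their values were seen. A fit with the array number as a block was an alternative, since in culture that number also marks sex and age. The main fit had no such term, so any difference of sex and age in culture is part of its SE. The number of arrays limits the precision. Neighbour order comes from RefSeq's gene table, with no coordinates used.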

Additional observations from a re-analysis of the deposited data

Results flagged for a closer look

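The response of Il21 in Treg to KT3 was higher in vivo than in culture by 0.54 at 2 h and 1.67 at 8 h. Limma's moderated F-test over the 4 times gave an adjusted p of 0.00195. Both Treg arrays of 8 h in vivo (5.79 and 5.82) lay above both in culture (4.5 and 4.34), of which the first is female like the in vivo arrays. The gene was chosen for its low level in Treg on these in vivo arrays, so the test is not independent of that choice. No conclusion is drawn from its p. Setting, dose and age cannot be told apart, and the part of sex was not tested.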

How the results depend on the processing

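Setting aside the fits that leave out 1 array, 178 of 202 values of the main comparisons stayed on the same side of the threshold and within the spread or within 1.5 times the count, and none reversed. With an offset of 16 on the intensity, Treg minus Tconv was -2.38 for Il2 and -1.75 for Il21 at 2 h in vivo, -2.44 and -3.45 at 8 h in vivo, and -1.11 and -0.43 at 2 h in culture. Quantile normalization gave Il21 -3.45 at 8 h in vivo and 0.36 at 8 h in culture. Without the cultured Tconv array of 0 h that stands apart, the genes called were 909 at 8 h in vivo (35 list genes), 647 at 2 h in culture, 4669 at 8 h in culture and 2264 in the Treg setting test. Without the 3 cultured arrays of narrowest range they were 942 at 2 h in vivo (35 list genes), 1106 at 8 h in vivo (39 list genes), 885 at 2 h and 1386 at 8 h in culture, 1293 in the Tconv and 2433 in the Treg setting test. The Tconv setting test on levels without 0 h called 1406 genes. The cause of these moves was not tested.

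With 1 array left out, the genes called ranged over 199 to 314 at 2 h in vivo, 244 to 324 at 8 h in vivo (12 to 15 list genes), 216 to 247 at 2 h in culture, 635 to 3573 at 8 h in culture, and 485 to 5240 in the Tconv setting test. The 635 came without Tconv array 1 of 8 h in culture, and the 5240 without Tconv array 2 of 0 h in culture, which leaves only the array that stands apart. Treg minus Tconv ranged over -3.52 to -2.39 for Il2 at 8 h in vivo, and for Il21 over -2.48 to -2.09 at 2 h in vivo and -0.97 to -0.38 at 2 h in culture. The adjusted p of the setting test stayed within 0.00144 to 0.0171 for Il21 in Treg.

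In culture the array number also marks sex and age, while all in vivo mice shared both. The sort could differ with the number in vivo: Tconv array 1 of 8 h was labelled double sorted and array 2 single sorted. The sort labels of the other in vivo arrays are not listed here. Deviations of same-numbered arrays correlated at -0.17 to 0.78 in vivo (median 0.3, 32 of 45 pairs of groups over 0.1) and -0.45 to 0.71 in culture (median 0.22, 28 of 45 over 0.1), so that not every pair deviated together. With the replicate number as a block, 824 genes and 31 list genes were called at 8 h in vivo, and 541 genes at 2 h and 3824 at 8 h in culture. The Treg minus Tconv differences of Il2 and Il21 were as without it, Il21 in Treg kept its setting call (adjusted p = 0.00208), and no named gene lost its call. Of the list genes named as called, 14 of 20 at 2 h in vivo, 10 of 20 at 8 h in vivo, 12 of 18 at 2 h in culture and 19 of 28 at 8 h in culture kept their call under all 11 alternatives. Dim signals limit what can be said of Il2 and Il21 outside the Tconv peak in vivo.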
